A study of Mus musculus with 24 samples.

Results

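The circadian clock genes described here are 10 genes of the transcriptional feedback loops that keep daily time inside cells. They comprise the activators Arntl, Clock and Npas2, the repressors Per1, Per2, Per3, Cry1 and Cry2, the nuclear receptor gene Nr1d1 and the output gene Dbp. They were taken by gene identifier, from a list chosen with earlier results of these data known. Each was found as 1 row of the lung table of 36109 genes and 1 row of the retina table of 36595 genes. RNA-seq was performed on 24 libraries, 12 from whole lungs and 12 from retinas, with 3 libraries in each of 4 groups per tissue. The groups were wild-type pups in room air (WT-RA), wild-type pups exposed to hyperoxia (WT-O2), GSDMD knockout pups in room air (KO-RA) and GSDMD knockout pups exposed to hyperoxia (KO-O2). All were C57/B6 pups from crosses of heterozygotes, and the knockout allele is a short CRISPR deletion inside an exon of Gsdmd, the gene of the pore-forming protein of pyroptosis, in every cell of the body. Lungs came from pups kept in 85% oxygen or in room air from postnatal day 1 to 14, and were collected on day 15. Retinas came from pups kept in 75% oxygen from postnatal day 7 to 12, followed by recovery in room air, or in room air throughout, and were collected on day 18. The hour of collection, the lighting schedule and the sex of the pups are not given in the sources used here. Levels of clock genes depend on the hour at which a tissue is taken, so every library is drawn in the figures of levels. The text gives values of single libraries or their range. A difference between groups in these genes cannot be told apart from a difference in the hour of collection.

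In the core loop, the protein of Arntl (BMAL1) pairs with CLOCK or NPAS2, binds E-box motifs and drives transcription of the Per and Cry genes, Nr1d1 and Dbp. PER and CRY proteins accumulate and repress BMAL1 and its partner. NR1D1 (REV-ERB alpha) represses Arntl, Clock and Npas2 through ROR elements, and DBP activates genes through D-box motifs. Peripheral tissues hold such clocks. The lung clock is prominent in bronchiolar epithelium and sets the daily rhythm of inflammatory responses, and the retina keeps its own clock, which is set by light. Per1 is in addition induced by glucocorticoid hormone and by signals that act on immediate early genes.

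Start-site sequence from RefSeq (GRCm38.p6) was read for the clock genes, from 250 bases before to 50 bases after each annotated start. Of the 10 members, 9 had an entry, with 13 windows, and Per2 had none. The motifs searched on both strands were the E-box CACGTG, the D-box TTATGTAA, the ROR element core TAGGTCA or TGGGTCA, and the cAMP response element TGACGTCA. An E-box was found in Per1 and Cry1, a D-box in Per3, a ROR element core in Arntl, and no cAMP response element in the 9 members. Of all 32851 windows in the table, 7.15% held the E-box, 0.938% the D-box, 6.45% a ROR element core and 1.79% the cAMP response element. Among 16 of the 22 other clock genes with an entry, an E-box was found in 3 (Bhlhe41, Ciart and Tef). The sequences below are the 250 bases before the start of Nr1d1, the member with the largest difference in the lung, of Cry1 and Per3, members with a match whose levels passed no threshold, and of Ciart and Bhlhe41, 2 further repressors with an E-box that moved in opposite directions in the lung. Capitals mark the matches, and for Arntl the match is shown with 10 bases on each side, since it lies after the start.
Nr1d1 (chr11:98775378-98775627, minus strand): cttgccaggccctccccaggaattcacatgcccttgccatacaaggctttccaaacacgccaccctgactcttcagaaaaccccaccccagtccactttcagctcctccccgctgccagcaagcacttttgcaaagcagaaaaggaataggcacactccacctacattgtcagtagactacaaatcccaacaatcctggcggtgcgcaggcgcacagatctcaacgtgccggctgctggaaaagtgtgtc
Cry1 (chr10:85185055-85185304, minus strand): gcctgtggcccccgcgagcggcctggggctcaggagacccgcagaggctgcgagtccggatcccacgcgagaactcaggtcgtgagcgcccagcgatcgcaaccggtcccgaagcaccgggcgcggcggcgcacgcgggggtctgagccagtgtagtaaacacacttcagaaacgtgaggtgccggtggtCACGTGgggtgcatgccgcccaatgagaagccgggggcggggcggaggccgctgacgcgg
Per3 (chr4:151044666-151044915, minus strand): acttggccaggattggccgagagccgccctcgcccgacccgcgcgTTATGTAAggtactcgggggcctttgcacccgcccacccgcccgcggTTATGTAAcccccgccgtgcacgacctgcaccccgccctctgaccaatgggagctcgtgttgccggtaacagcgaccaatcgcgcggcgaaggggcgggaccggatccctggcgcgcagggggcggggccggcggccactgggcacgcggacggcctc
Ciart (chr3:95882229-95882478, minus strand): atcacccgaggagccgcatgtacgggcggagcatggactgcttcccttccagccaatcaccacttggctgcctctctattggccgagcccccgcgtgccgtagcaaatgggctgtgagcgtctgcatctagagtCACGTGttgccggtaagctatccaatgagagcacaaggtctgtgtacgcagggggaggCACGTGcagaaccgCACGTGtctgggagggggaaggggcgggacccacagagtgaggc
Bhlhe41 (chr6:145865421-145865670, minus strand): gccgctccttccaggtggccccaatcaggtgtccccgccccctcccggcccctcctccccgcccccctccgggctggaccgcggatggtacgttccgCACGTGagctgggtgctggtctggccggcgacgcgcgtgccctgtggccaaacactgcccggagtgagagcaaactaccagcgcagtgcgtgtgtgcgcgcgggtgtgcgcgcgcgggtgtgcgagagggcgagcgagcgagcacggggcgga
Arntl (chr7:113207531-113207557, plus strand): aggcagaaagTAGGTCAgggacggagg
The Cry1 match began at -60 from the annotated start, the Per3 matches at -205 and -158, and the Ciart matches at -116, -58 and -44. The stretch shown for Nr1d1 held no match to these letters. A match is a description of sequence and shows no binding.

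Counts assigned to genes ran from 28763661 to 29604254 per lung library and from 24863257 to 29093035 per retina library, and all 10 members passed the filter on low counts in both tissues. Levels are given as CPM, the usual unit of counts scaled to a common library size, after TMM normalization of the library sizes. Markers of lung (Sftpc, Sftpb, Scgb1a1, Ager and Cldn5) and of retina (among them Rcvrn, Pax6 and Rlbp1) were present in every library of their tissue. Gsdmd in the lung was 40.6 to 42.3 CPM in WT-RA and 32.1 to 36.4 CPM in WT-O2, against 22.6 to 24.8 CPM in KO-RA and 11.7 to 16.3 CPM in KO-O2, so its transcript was lower in every knockout library but not absent. In the retina Gsdmd lay at 0.419 to 5.70 CPM in WT and 0.636 to 2.95 CPM in KO libraries, the ranges overlapped, and the library labelled WT-RA replicate 2 had the lowest value, so the transcript does not separate the retina labels. Lens transcripts summed to 14732 to 46644 CPM in 3 retina libraries (WT-RA replicates 2 and 3 and KO-RA replicate 3) and to at most 274 CPM in the others. Liver transcripts summed to 154 CPM in lung KO-O2 replicate 1 and to at most 2.57 CPM in the other 11 lung libraries, and erythroid transcripts in the lung summed to 2913 to 4127 CPM in WT-O2 against 25655, 28556 and 6092 CPM in KO-O2. Y-linked genes were expressed in 0, 1, 2 and 3 libraries of lung WT-RA, WT-O2, KO-RA and KO-O2, so the sexes of the pups were not balanced over the groups. In whole tissue, fewer cells of a type and less RNA per cell cannot be told apart.

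Per kilobase of exonic length (GENCODE M21, GRCm38), Per1 had the highest mean level of the members in the lung, at 38.3 CPM per kb over the 12 libraries with a range of 22.5 to 54.1, followed by Nr1d1 at 25.5 CPM per kb with a range of 10.7 to 41.4. Per2 (10.6 CPM per kb), Dbp (10.4) and Cry2 (9.10) came next, and their ranges over libraries overlapped. Arntl (3.31 CPM per kb) and Npas2 (2.98) were lowest, also with overlapping ranges. In the retina the order was different, with Dbp at 62.05 CPM per kb (47.9 to 86.5) and Nr1d1 at 52.9 CPM per kb (31.7 to 72.2) above all other members in every library. Arntl (11.3 CPM per kb), Per1 (11.1) and Cry2 (10.85) followed and overlapped, while Per2 (1.62 CPM per kb) and Npas2 (0.670) were lowest and did not overlap in range. The 2 tables were made separately, so levels are compared here only within a tissue.

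In hyperoxia-exposed WT lungs Nr1d1 and Npas2 rose and the other 8 members were past no threshold. Nr1d1 (chr11:98767932-98775333, minus strand), the repressor arm of the receptor loop, stood at 32.8, 40.4 and 49.2 CPM in WT-RA and at 80.6, 127 and 112 CPM in WT-O2. Every WT-O2 lung lay above every WT-RA lung. The change was 2.61-fold (log2 fold change 1.38, SE 0.25, adjusted p = 0.0013, edgeR quasi-likelihood test). In KO lungs Nr1d1 was 79.6, 55.7 and 39.3 CPM in room air and 106, 111 and 107 CPM in hyperoxia, again without overlap, a 1.86-fold rise (log2 0.89, SE 0.25, adjusted p = 0.015). The KO-RA lungs differed among themselves by a factor of 2.03, and without KO-RA replicate 1 the log2 fold change was 1.18, past the fold threshold. Nr1d1 shares 263 exonic bases with the gene Thra on the opposite strand, 8.55% of its exonic length, and without strand their reads there cannot be told apart. Thra itself fell in WT lungs (log2 -0.49, adjusted p = 0.00042) and in KO lungs (log2 -0.37, adjusted p = 0.0036).

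Npas2 (chr1:39193731-39363236, plus strand) encodes the paralogue of CLOCK and was the lowest member per length in both tissues. In the lung it was 13.5, 14.9 and 9.01 CPM in WT-RA and 21.8, 16.8 and 16.9 CPM in WT-O2, without overlap. Its rise was 1.48-fold (log2 0.57, SE 0.17, adjusted p = 0.016). With a term for erythroid transcripts the value was 0.71 with a wider SE of 0.35, and the call was lost (adjusted p = 0.19). Erythroid transcripts summed to 15689 to 18067 CPM in WT-RA and to 2913 to 4127 CPM in WT-O2. That term and the exposure can therefore hardly be told apart in WT. In KO lungs Npas2 was 11.7, 9.27 and 11.2 CPM in room air and 14.98, 17.3 and 14.02 CPM in hyperoxia, also without overlap. This was a 1.44-fold rise (log2 0.52, SE 0.17, adjusted p = 0.027), which was lost without KO-RA replicate 2 (log2 0.43, adjusted p = 0.11).

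Arntl and Clock did not pass the threshold in the lung. Arntl (chr7:113207465-113314126, plus strand), the partner that the loop depends on, was 24.8, 25.9 and 21.02 CPM in WT-RA and 25.6, 23.7 and 29.1 CPM in WT-O2 (log2 0.13, 95% interval -0.21 to 0.47). In KO lungs it was 26.9, 17.5 and 21.1 CPM in room air and 31.0, 29.99 and 21.9 CPM in hyperoxia. The groups overlapped, with a log2 fold change of 0.34 (SE 0.16, adjusted p = 0.11). It passed when 1 of 3 libraries was left out, at 0.52 without KO-RA replicate 1 (adjusted p = 0.02), 0.48 without KO-O2 replicate 3 (adjusted p = 0.029) and 0.34 without WT-RA replicate 3 (adjusted p = 0.096). With the erythroid term Arntl passed in both genotypes, at 0.70 in WT (adjusted p = 0.091) and 0.44 in KO (adjusted p = 0.025). The limit of that term given for Npas2 holds for the WT value. Clock (chr5:76209868-76304792, minus strand) ranged from 54.1 to 84.2 CPM over all 12 lungs, with log2 fold changes of 0.10 in WT (95% interval -0.21 to 0.42) and near 0 in KO (-0.31 to 0.32).

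Among the repressors, Per2 (chr1:91415982-91459324, minus strand) was lower in hyperoxia-exposed KO lungs. It was 54.1, 96.1 and 88.5 CPM in KO-RA and 45.4, 38.1 and 58.9 CPM in KO-O2, a 1.68-fold fall (log2 -0.75, SE 0.22, adjusted p = 0.018). The groups overlapped through KO-RA replicate 1, without which the log2 fold change was -0.96. In WT lungs Per2 was 71.7, 63.8 and 50.1 CPM in room air and 63.3, 57.0 and 58.8 CPM in hyperoxia (log2 -0.050, SE 0.22, adjusted p = 0.88). Erythroid transcripts were lower in WT-O2 than in the other groups, so a term for them can hardly be told apart from exposure in WT. With that term the WT value of Per2 was -0.84 (SE 0.31, adjusted p = 0.093). Without it, a test of whether the Per2 response differed by genotype gave -0.70 on the log2 scale (SE 0.31, adjusted p = 0.73) and did not pass.

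Per1 (chr11:69095217-69109960, plus strand) varied most between lungs of the same group. It stood at 304, 156 and 135 CPM in WT-RA, at 273, 280 and 208 CPM in WT-O2, at 127, 260 and 247 CPM in KO-RA and at 173, 249 and 178 CPM in KO-O2. All 4 groups overlapped, and the largest ratio within a group, 2.26 in WT-RA, exceeded the fold of each comparison. The log2 fold changes were 0.36 (SE 0.36) in WT and -0.080 (SE 0.36) in KO. Without WT-RA replicate 1, the library with the highest Per1, the WT value was 0.81 (adjusted p = 0.067). Per3, Cry1 and Cry2 varied less, from 52.9 to 79.6 CPM, from 23.0 to 30.4 CPM and from 48.7 to 68.9 CPM over the 12 lungs. Their 6 log2 fold changes in hyperoxia lay between -0.21 (Cry2 in KO, adjusted p = 0.11) and 0.15 (Cry1 in KO, adjusted p = 0.21). The Cry2 value in KO passed without any 1 of WT-RA replicate 1, WT-RA replicate 3 and WT-O2 replicate 3 (log2 -0.21 in each, adjusted p from 0.06 to 0.091), and in the fit of only the groups compared (log2 -0.21, adjusted p = 0.051). Per3 in WT was -0.55 with the erythroid term (adjusted p = 0.091), against -0.046 without it, and the limit of that term in WT holds here too.

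Dbp (chr7:45705088-45710203, plus strand), an output gene that BMAL1 drives directly, was 22.9, 26.3 and 37.6 CPM in WT-RA, 30.4, 39.0 and 32.5 CPM in WT-O2, 30.6, 32.3 and 21.97 CPM in KO-RA and 26.6, 33.8 and 40.9 CPM in KO-O2. The groups overlapped in both genotypes. Its log2 fold changes of 0.23 (95% interval -0.23 to 0.69) in WT and 0.26 (-0.20 to 0.71) in KO did not pass the threshold. Without WT-RA replicate 3 the WT value was 0.47 (adjusted p = 0.081). Dbp shares 539 exonic bases, 18.01% of its exonic length, with Sphk2 on the opposite strand, and Sphk2 was 50.3 to 64.7 CPM over the lungs, with adjusted p of 0.99 and 0.51.

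**Figure D1:**
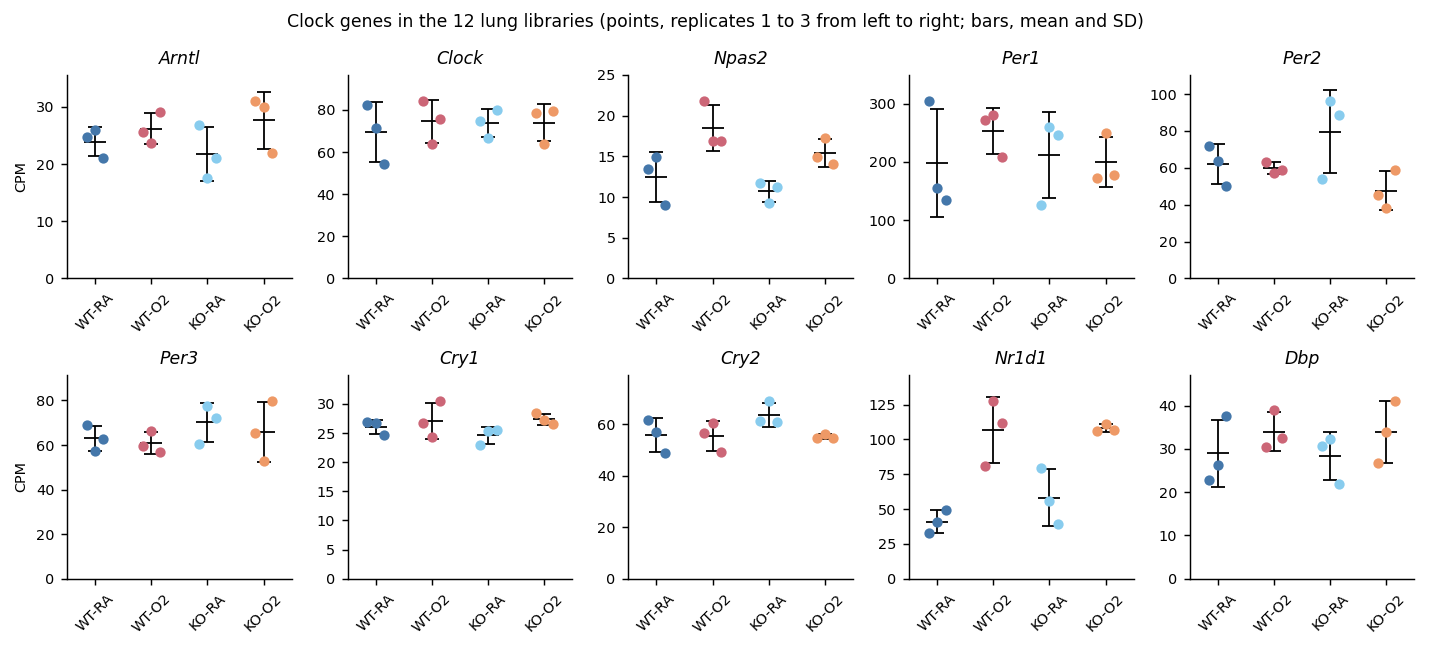
Levels of the 10 clock genes in the 12 lung libraries. Each panel is a gene, the vertical axis is CPM from 0, the points are the 3 libraries of a group, and the bars give the mean and SD. The Nr1d1 points of WT-O2 (80.6 to 127 CPM) and KO-O2 (106 to 111 CPM) lie above those of the room air groups (32.8 to 79.6 CPM), while the Per1 points of all groups overlap.

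At an adjusted p under 0.1, 2 of 10 members passed in hyperoxia-exposed WT lungs, both higher, beside 49.2% of all 16819 genes tested. With a fold change of at least 2 as well, 1 member was called beside 11.6% of all genes. In KO lungs 3 of 10 passed, 2 higher and 1 lower, beside 46.7% of all genes, and with the fold threshold none was called beside 10.6%. The median absolute log2 fold change of the members was 0.12 in WT and 0.23 in KO, beside 0.32 and 0.30 over all genes tested. At the adjusted p alone the share of members was below that of all genes in both genotypes. Under either rule, 10 members are too few to tell their share from that of all genes. The groups did not overlap for 2 of 10 members in WT and 4 of 10 in KO, beside 49.8% and 52.4% of all genes. Markers of macrophages (Cd68, Adgre1, Mrc1 and Marco) rose in the same lungs, 4 of 4 in both genotypes, and their sum was 103 to 126 CPM in WT-RA, 209 to 237 CPM in WT-O2, 80.9 to 87.6 CPM in KO-RA and 169 to 222 CPM in KO-O2. Their part in the values of the clock genes was not tested.

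Between the genotypes no member passed in the lung. In KO-O2 against WT-O2 it was 0 of 10, beside 0.0416% of all genes at the adjusted p and 0.0238% with the fold threshold, and 0 of 10 members had an unadjusted p under 0.05. The largest values were those of Per1 (log2 -0.34, SE 0.36) and Per2 (log2 -0.33, SE 0.22). In KO-RA against WT-RA it was also 0 of 10, beside 0.488% and 0.137% of all genes, with 0 members at an unadjusted p under 0.05. Nr1d1 had the largest value there (log2 0.51, SE 0.25, adjusted p = 0.51). For the interaction of genotype and hyperoxia it was 0 of 10 beside 0.00595%, with 1 member, Per2, at an unadjusted p under 0.05.

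In the retina no member passed an adjusted p of 0.1 in any comparison by edgeR. Dbp had the smallest p in hyperoxia-exposed WT retinas. It was 259, 226 and 183 CPM in WT-RA and 178, 151 and 170 CPM in WT-O2, without overlap (log2 -0.42, SE 0.13, adjusted p = 0.13). In KO retinas Dbp was 218, 178 and 192 CPM in room air and 143, 169 and 162 CPM in hyperoxia, also without overlap (log2 -0.31, SE 0.13, adjusted p = 0.22). DESeq2 gave a WT value of -0.42 with an adjusted p of 0.032. Leaving out the 3 libraries with lens transcripts, the WT value was -0.64. Only replicate 1, the library with the highest Dbp of WT-RA, then remained in that group. By edgeR the WT value was -0.54 without WT-RA replicate 3 (adjusted p = 0.044), -0.30 without WT-RA replicate 1 (adjusted p = 0.35) and -0.41 without the library labelled WT-RA replicate 2 (adjusted p = 0.25). With a term for Y-linked expression, which was present in 3 WT-RA libraries and 1 WT-O2 library of the retina, the value was -0.32 (adjusted p = 0.43).

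Nr1d1 in the retina was 205, 222 and 160 CPM in WT-RA and 153, 159 and 140 CPM in WT-O2, a log2 fold change of -0.38 (SE 0.22, adjusted p = 0.40) opposite in sign to the lung. In KO retinas it was 177, 139 and 141 CPM in room air and 97.4, 197 and 162 CPM in hyperoxia, the hyperoxia values spanning those of room air (log2 -0.0019, SE 0.22). KO-O2 replicate 1 was the lowest retina for Nr1d1. The same library had 50.7 CPM of Per1 where the other two KO-O2 retinas had 98.4 and 91.8 CPM, against 61.6, 52.1 and 50.2 CPM in KO-RA. With it the log2 fold change of Per1 in KO hyperoxia was 0.56 (SE 0.22, adjusted p = 0.18), and without it 0.80 (adjusted p = 0.023). In WT retinas Per1 was 51.7, 68.3 and 54.6 CPM in room air and 51.3, 67.3 and 53.7 CPM in hyperoxia (log2 -0.019, SE 0.22).

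Of the activators, Arntl varied least in the retina. It was 81.2, 83.9 and 78.0 CPM in WT-RA, 87.4, 90.4 and 89.3 CPM in WT-O2, 84.5, 83.0 and 80.4 CPM in KO-RA and 93.3, 87.2 and 80.1 CPM in KO-O2, and the highest of the 12 libraries was 1.20 times the lowest. Its log2 fold change in WT hyperoxia was 0.14 (95% interval -0.029 to 0.30). Clock in KO-RA (41.9, 37.7 and 43.8 CPM) lay above WT-RA (26.8, 29.8 and 33.1 CPM) without overlap (log2 0.46, SE 0.10, adjusted p = 0.23). It was 32.1, 32.6 and 31.96 CPM in WT-O2 and 35.2, 32.3 and 35.8 CPM in KO-O2, with a log2 fold change of -0.26 in KO hyperoxia (adjusted p = 0.16). Npas2 ranged from 2.14 to 5.23 CPM, with log2 fold changes of -0.61 (SE 0.30) in WT and 0.26 (SE 0.29) in KO.

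The remaining repressors of the retina gave small differences. Per2 was 9.56, 10.6 and 11.2 CPM in WT-RA and 7.58, 8.30 and 8.20 CPM in WT-O2 (log2 -0.38, SE 0.14, adjusted p = 0.18), and 8.68 to 11.6 CPM in the KO groups. Cry2 was 56.4, 65.4 and 59.9 CPM in WT-O2 and 63.5, 82.5 and 84.2 CPM in KO-O2 (log2 0.34, SE 0.12, adjusted p = 0.25). Per3 and Cry1 ranged from 35.1 to 51.8 CPM and from 26.9 to 34.1 CPM over the 12 retinas. Their 4 log2 fold changes in hyperoxia lay between -0.12 and 0.14 (both Per3).

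**Figure D2:**
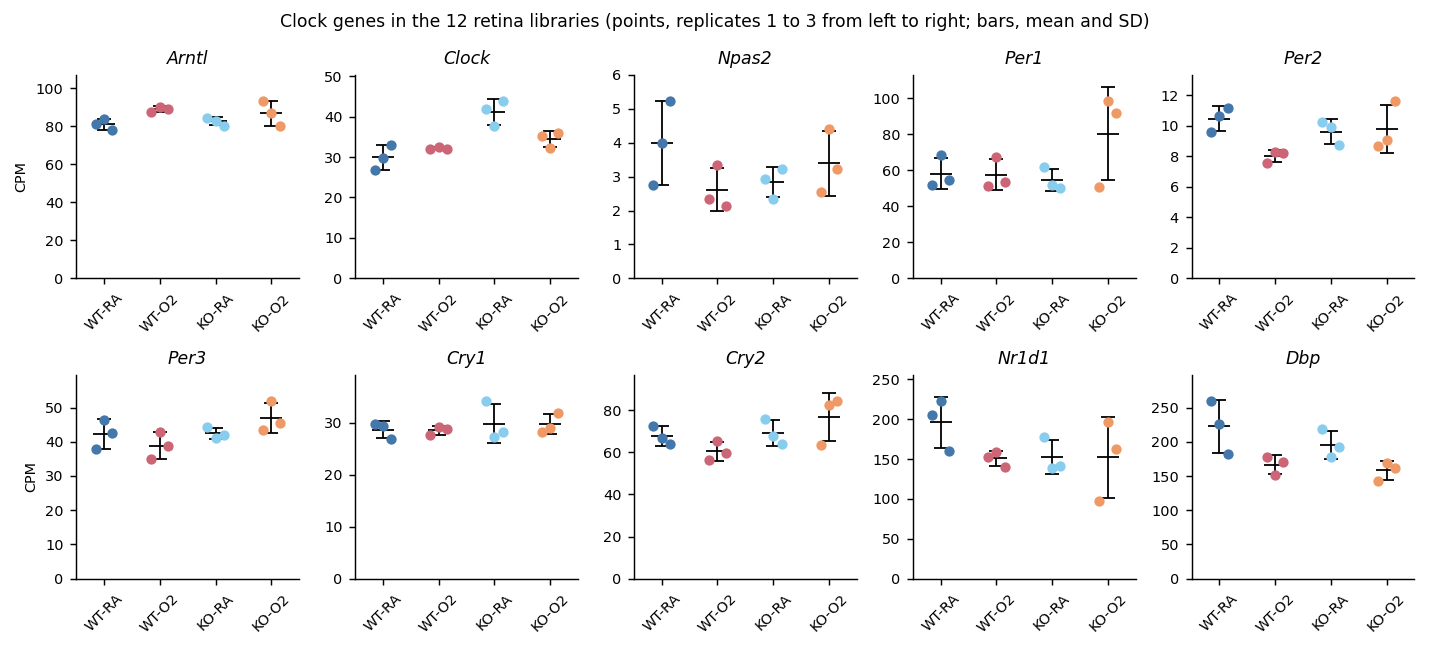
Levels of the 10 clock genes in the 12 retina libraries, drawn as for the lung, with CPM from 0 on the vertical axis, 3 points per group and bars for the mean and SD. The Arntl points lie between 78.0 and 93.3 CPM in all groups, and KO-O2 replicate 1 lies apart from the other two libraries for Per1 (50.7 CPM) and Nr1d1 (97.4 CPM).

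In hyperoxia-exposed WT retinas 0 of 10 members passed, beside 5.16% of all 19173 genes tested and 2.04% with the fold threshold, and 2 (Dbp and Per2) had an unadjusted p under 0.05. In hyperoxia-exposed KO retinas it was 0 of 10, beside 7.82% and 2.19%, with 3 (Clock, Per1 and Dbp) at an unadjusted p under 0.05. In KO-O2 against WT-O2 it was 0 of 10, beside 1.27% and 0.292%, with 3 (Cry2, Per3 and Per1) at an unadjusted p under 0.05. In KO-RA against WT-RA it was 0 of 10, beside 0.00522% under either rule, with 1 (Clock). For the interaction it was 0 of 10 beside 0.00522%, again with 1 (Clock, log2 -0.36, SE 0.14, adjusted p = 0.37). DESeq2 put 1 member past an adjusted p of 0.1 in each of 3 retina comparisons, Dbp in WT hyperoxia, and Clock in KO hyperoxia (log2 -0.26, adjusted p = 0.087) and in KO-RA against WT-RA (log2 0.44, adjusted p = 0.0034). The median absolute log2 fold change of the members was 0.15 in both hyperoxia comparisons, beside 0.23 and 0.25 over all genes. The groups did not overlap for 4 of 10 members in WT hyperoxia and 2 of 10 in KO hyperoxia, beside 24% and 26.2% of all genes. For KO-O2 against WT-O2 it was 2 of 10 beside 19.9%, and for KO-RA against WT-RA 1 of 10 beside 17.7%.

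**Figure D3:**
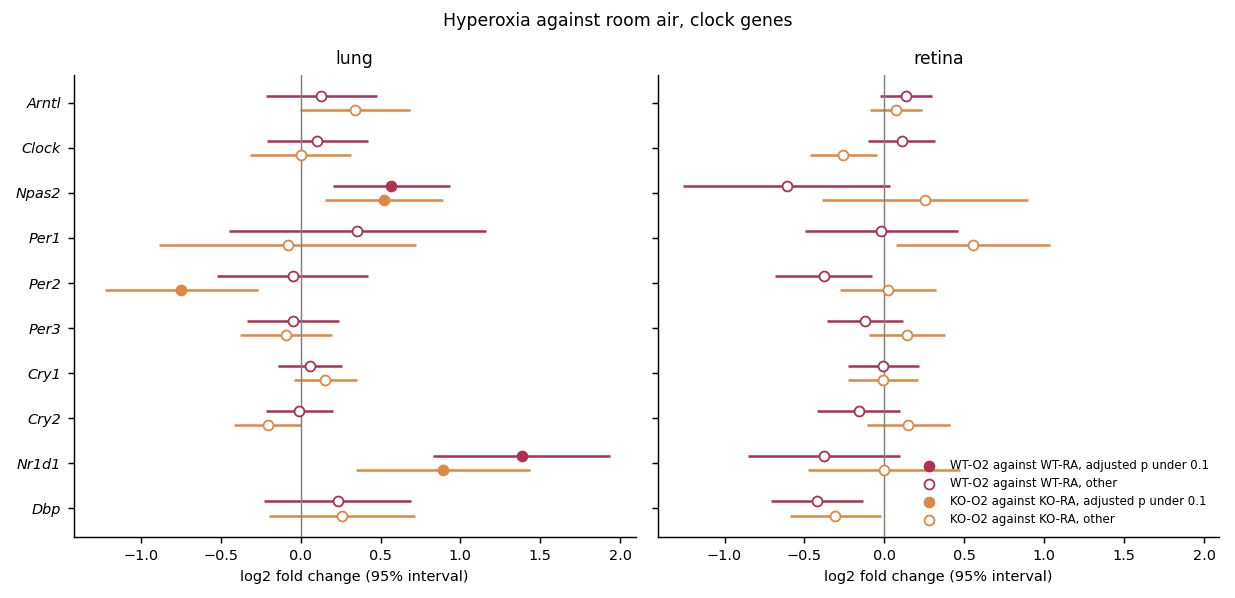
Log2 fold changes of the 10 clock genes in hyperoxia against room air, in lung and retina, for WT and KO pups. Points are estimates with 95% intervals from edgeR, filled where the adjusted p was under 0.1. Nr1d1 (1.38 in WT and 0.89 in KO) and Npas2 lie to the right in the lung, Per2 lies to the left in KO lungs (-0.75), and all points of the retina are open.

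Clock genes cycle over the day, and libraries of the same group were therefore compared with each other. The SD of log2 CPM within groups in the lung was 0.47 for Per1, 0.34 for Nr1d1, 0.31 for Per2 and 0.10 for Cry1, beside a median of 0.16 over all genes tested. Per1 was at percentile 89.7 of all genes, Nr1d1 at 81.4, Per2 at 77.9, Dbp at 77.0 and Npas2 at 70.8. Cry2 (33.8) and Cry1 (20.6) were lowest, with Arntl at 68.4, Clock at 64.5 and Per3 at 59.8. In the retina the median SD over all genes tested was 0.24, with Npas2 at percentile 66.7, Per1 at 62.1 and Nr1d1 at 61.7. The other 7 members of the retina were at percentiles of 30.7 or less, and Arntl, with an SD of 0.065, was at 0.69. Tissue, age and the hour of collection cannot be told apart between the tables. Within a table, exposure or genotype cannot be told apart from the hour of collection either.

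**Figure D4:**
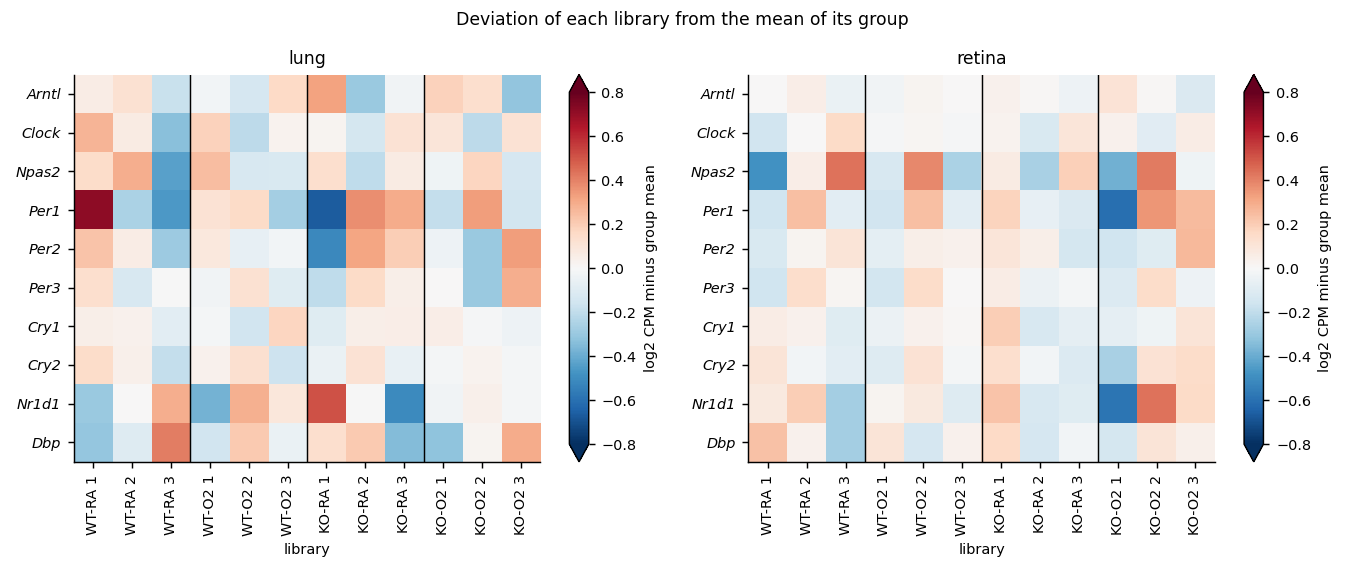
Deviation of each library from the mean of its group, as log2 CPM, for the 10 clock genes (rows) in the 12 libraries (columns) of lung and retina. Red is above and blue below the group mean, and vertical lines separate groups. In the lung Per1 is high in WT-RA replicate 1 and low in KO-RA replicate 1, while Nr1d1 is high in KO-RA replicate 1, and in the retina KO-O2 replicate 1 is low for Per1 and Nr1d1.

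Whether members moved together between animals was tested over 6 pairs of genes in each tissue, 12 relations in all, with group means removed. Permutations were made within groups in 1296 arrangements, and the smallest p they can give is 0.000772. In the lung Arntl and Per3 were opposed, with Pearson's r = -0.78 (n = 12, exact permutation p = 0.0293, adjusted p = 0.306) and Spearman's rho = -0.734 (permutation p = 0.0486, adjusted p = 0.426). Without the 2 libraries farthest from the median of Arntl r was -0.615, and it was -0.767 in room air and -0.824 in hyperoxia. Arntl and Npas2 had r = 0.583 (n = 12, exact permutation p = 0.0509, adjusted p = 0.306), and Arntl and Dbp r = -0.529 (n = 12, exact permutation p = 0.15, adjusted p = 0.528). Per1 and Per2 in the lung had r = 0.58 (n = 12, exact permutation p = 0.176, adjusted p = 0.528), with 0.899 in room air and -0.55 in hyperoxia. In the retina the 6 values lay between -0.278 (Arntl and Npas2) and 0.541 (Per1 and Per2), with exact permutation adjusted p of at least 0.75. None of the 12 relations passed an adjusted p of 0.1.

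Outside the members, the genes whose log2 CPM was most like that of Arntl over the 12 lungs were Lrig3, Gab1, Helb, Gzmb and Il17ra, with Pearson's r from 0.85 to 0.87. For Dbp in the lung they were Dnpep, Dgcr6, Gm10175, Phpt1 and Hsd17b10 (r from 0.90 to 0.93). In the retina they included Btc, Mttp, Rwdd4a and Mapk11 for Arntl (r from 0.86 to 0.91), and were Snrpn, Phyhipl, Atp6v0d1, Lgi3 and Tmem59l for Dbp (r of 0.95). None of the genes named was shared between the tissues or between Arntl and Dbp. With group means removed, Helb stayed among the 5 for Arntl in the lung (r = 0.93) and Dnpep among the 5 for Dbp in the lung (r = 0.96). These are the highest correlations among all genes of at least 1 CPM over 12 libraries that share groups, and are given as a description.

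Of the 22 other clock genes, 17 passed an adjusted p of 0.1 in hyperoxia-exposed WT lungs, 8 higher and 9 lower, beside the 49.2% of all genes given above. In KO lungs it was 17 as well, also 8 higher and 9 lower, beside 46.7%. With the fold threshold 4 were called in WT and 3 in KO lungs, beside 11.6% and 10.6% of all genes. The repressor gene Bhlhe40, whose protein competes at E-boxes, had the smallest p. It was 43.5, 40.4 and 39.9 CPM in WT-RA and 136, 155 and 158 CPM in WT-O2, a 3.63-fold rise (log2 1.86, SE 0.10, adjusted p = 6.6e-09), and in KO lungs it rose 3.66-fold, from 34.8 to 40.4 CPM up to 120 to 149 CPM. Its paralogue Bhlhe41 rose as well, from 6.22 to 6.81 CPM in WT-RA to 11.3 to 15.2 CPM in WT-O2 (log2 1.01, SE 0.15), with a log2 fold change of 0.99 in KO. The macrophage markers given above rose in the same lungs (median log2 0.92 in WT and 1.18 in KO), and their part in the Bhlhe40 and Bhlhe41 values was not tested.

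Hlf, a PAR bZIP factor of the same family as Dbp, moved the other way. It was 33.8, 35.6 and 53.9 CPM in WT-RA and 10.6, 12.6 and 11.6 CPM in WT-O2, a 3.54-fold fall (log2 -1.83, SE 0.16, adjusted p = 1.2e-06), and in KO lungs it was 52.5 to 54.5 CPM in room air and 11.3 to 15.1 CPM in hyperoxia (log2 -2.02, SE 0.16). Dbp itself did not pass in either genotype. Ciart, a repressor of BMAL1 and CLOCK with 3 E-boxes in the stretch shown above, fell from 21.6 to 25.8 CPM in WT-RA to 10.3 to 15.7 CPM in WT-O2 (log2 -0.85, SE 0.14, adjusted p = 0.00019). In KO lungs it fell from 24.6 to 29.4 CPM to 11.2 to 12.5 CPM (log2 -1.21, SE 0.14, adjusted p = 9.7e-06). Bhlhe41, with an E-box as well, had risen. Csnk1e, a kinase of PER proteins, fell by less (log2 -0.44 in WT and -0.50 in KO). Wee1, a cell cycle kinase and clock output, rose in WT lungs (log2 0.79, SE 0.13, adjusted p = 0.00017) and had 0.24 in KO (adjusted p = 0.15), with an interaction of -0.56 (adjusted p = 0.53).

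**Figure D5:**
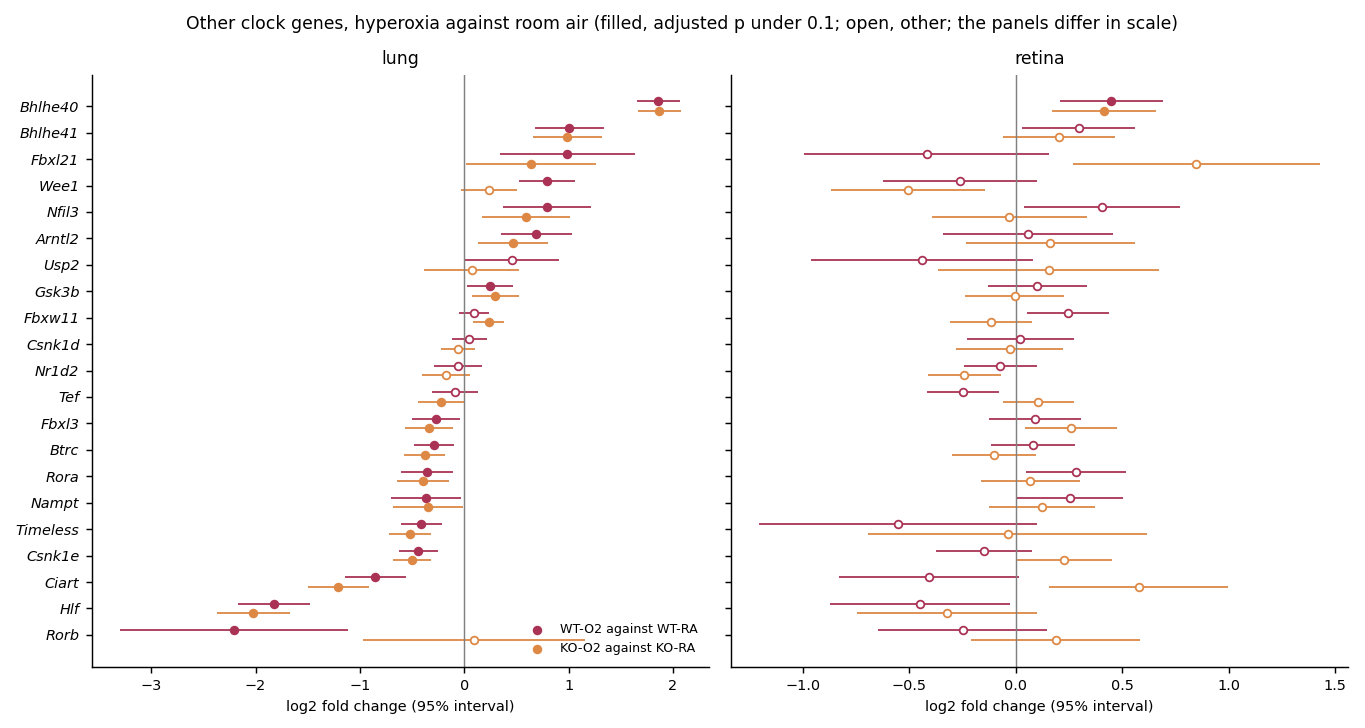
Log2 fold changes with 95% intervals of other clock genes in hyperoxia against room air, in lung (left) and retina (right, on a different scale), for WT and KO pups. Filled points had an adjusted p under 0.1. Bhlhe40 (1.86 and 1.87) is at the top and Hlf (-1.83 and -2.02) near the bottom in the lung, and in the retina the points of Bhlhe40 are filled in both genotypes.

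In the retina 1 of the 22 genes passed in WT and 2 passed in KO, all higher, beside 5.16% and 7.82% of all genes. Bhlhe40 passed in both genotypes. It was 32.7, 37.8 and 30.9 CPM in WT-RA and 44.6, 50.7 and 43.3 CPM in WT-O2 (log2 0.45, SE 0.11, adjusted p = 0.058), and in KO it rose from 27.4 to 32.5 CPM up to 36.7 to 43.5 CPM (log2 0.42, adjusted p = 0.064). It was higher in hyperoxia without overlap in all 4 comparisons of the 2 tissues. Each of these alone had no overlap for 24% to 52.4% of all genes. Nr1d2, the paralogue of Nr1d1, was at 99.8 to 102 CPM in KO-RA against 72.9 to 81.8 CPM in WT-RA (log2 0.38, SE 0.079, adjusted p = 0.23). Tef, another PAR bZIP factor, was 210 to 232 CPM in WT-RA and 186 to 191 CPM in WT-O2 (log2 -0.25, adjusted p = 0.12).

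Genes that respond to glucocorticoid hormone, to acute stimulation and to temperature were measured beside the members, because Per1 and Per2 respond to the same signals. The 8 glucocorticoid-responsive genes summed to 1701, 1168 and 620 CPM in the WT-RA lungs and to 807, 1352 and 1516 CPM in the KO-RA lungs, as CPM of the library total without TMM. In the order of replicates, Per1 was 304, 156 and 135 CPM and 127, 260 and 247 CPM in the same lungs. The highest and the lowest Per1 of WT-RA, and the lowest of KO-RA, were thus the libraries with the highest and lowest sums. In KO-RA the highest Per1 was in replicate 2 and the highest sum in replicate 3. In hyperoxia the sums were 971, 921 and 823 CPM in WT-O2 and 734, 889 and 651 CPM in KO-O2. There the orders differed, since the highest Per1 of WT-O2 was in replicate 2 and the lowest Per1 of KO-O2 in replicate 1. Of the 8 genes 2 rose and 2 fell in WT lungs, and 2 rose and 4 fell in KO lungs, where 49.2% and 46.7% of all genes passed. Zbtb16, a glucocorticoid-induced transcription factor, was 64.7, 72.0 and 5.09 CPM in WT-RA (12.2, 16.7 and 11.8 CPM in WT-O2), and in KO it fell from 106, 138 and 182 CPM to 2.13 to 3.51 CPM (log2 -5.61, SE 0.91, adjusted p = 0.0015). Mt1 and Mt2, metallothioneins that answer to metals and to oxidative stress as well, rose in both genotypes (log2 1.05 and 1.26 in WT). In the retina 1 of the 8 genes fell in WT, Tsc22d3 (log2 -0.47, adjusted p = 0.088), beside 5.16% of all genes that passed. In KO retinas 1 rose (Mt1, log2 1.23) and 2 fell (Tsc22d3, log2 -0.43, and Sgk1, log2 -0.75), beside 7.82%. The part of glucocorticoid signalling in the Per1 and Per2 values was not tested.

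Of the 9 immediate early genes 3 rose in WT lungs and 6 in KO lungs, and none fell, beside the same 49.2% and 46.7% of all genes. In neither tissue did any of the 9 pass in KO-O2 against WT-O2 or in the interaction, where at most 1.27% of all genes passed. Junb rose 2.59-fold in WT (58.7 to 73.9 CPM against 131 to 225 CPM), Egr2 rose in both (log2 1.08 and 1.21), and Fosb 6.17-fold in KO lungs (1.83 to 3.28 CPM against 11.6 to 24.6 CPM). In the retina 2 rose in WT and 6 in KO, beside 5.16% and 7.82% of all genes, among them Junb (log2 1.56 in WT and 1.25 in KO), and in KO Nr4a1 (log2 1.42) and Egr1 (log2 2.83). The sum of the list in the KO-O2 retinas was 215 CPM in replicate 1 and 445 and 304 CPM in the others, and Per1 was 50.7 CPM against 98.4 and 91.8 CPM in the same order. Libraries also ranked alike for the sum and Per1 in WT-RA lungs and KO-RA retinas, but not in the other groups of either tissue. In KO-O2 lungs the sums were 1586, 948 and 571 CPM, and replicate 1, with the highest sum, had the lowest Per1. The part of the immediate early genes in the Per1 values was not tested.

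Among 5 temperature-responsive genes, Rbm3, a cold-inducible RNA-binding protein gene that is linked to the clock, separated the KO-O2 retinas from all others. It was 116, 109 and 113 CPM in WT-RA, 122, 128 and 131 CPM in WT-O2, 108, 120 and 115 CPM in KO-RA and 261, 248 and 238 CPM in KO-O2. Its log2 fold change in KO hyperoxia was 1.12 (SE 0.073, adjusted p = 0.00012), and against WT-O2 0.97 (SE 0.073, adjusted p = 0.00056). The interaction was 0.95 (SE 0.10, adjusted p = 0.025), the 1 gene of the retina past that threshold. Cirbp, its cold-inducible relative, was 374 to 458 CPM in KO-O2 against 250 to 329 CPM in KO-RA (log2 0.51, adjusted p = 0.034), and the heat shock gene Hsph1 was 34.9 to 39.4 CPM in KO-O2 against 47.6 to 58.7 CPM in KO-RA (log2 -0.50, adjusted p = 0.017). Those 3 genes were the ones of the 5 that passed in KO retinas, beside 7.82% of all genes. In WT retinas 0 passed by edgeR, beside 5.16% of all genes, with 1 (Rbm3) at an unadjusted p under 0.05. In the lung Rbm3 rose in WT (log2 0.43, SE 0.094) and KO (log2 0.58, SE 0.094), as did Hspa1b (log2 1.06 and 0.52), and none of the 5 fell. The temperature of the pups is not given in the sources used here.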

How the data were processed

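RNA-seq of 12 lungs and 12 retinas was analysed, 3 libraries per group, grouped by the genotype and exposure of their labels. The authors quantified the reads against transcripts with kallisto, brought the estimates to gene level with tximport, and deposited expected counts (estimated counts, not whole numbers) for each tissue. The genome build is given as mm10 in the submitters' processing notes and as a newer build in the study's methods, and the versions of the tools are not given in the sources used here. Of values above 0, 55.8% (lung) and 2.20% (retina) lay within 0.01 of a whole number. Whether the retina values were scaled is not known, and tests were made within a tissue. Nothing says how strand was counted.

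Identifiers were matched to symbols in GENCODE M21 (35816 of 36109 lung genes and 35968 of 36595 retina genes). Counts were rounded and fitted in R 4.3.3 with edgeR 4.0.16: TMM, filterByExpr by group, a term per group over the 12 libraries of a tissue, robust quasi-likelihood F-test, and Benjamini-Hochberg adjustment over the 16819 lung and 19173 retina genes tested. Calls needed a fold of 2 or more, p below 0.05 and adjusted p below 0.1, and genes were counted at the adjusted p alone as well, which is what rose and fell mean. The SE was the size of the log2 fold change divided by the root of the F statistic. Correlations used log2 CPM with a prior count of 2, centred on group means, and an exact two-sided permutation within groups. The fit was tested on simulated counts with known changes. Every member averaged over 2 CPM in both tissues, and 3 libraries per group limit the precision.

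The members and gene lists were chosen with earlier results of these data known. Named genes are all members, the 6 other clock genes per tissue and the 3 genes per further list with the smallest p in either hyperoxia comparison, Gsdmd as the check of the labels, and the 5 genes outside the members most correlated with Arntl and with Dbp. Some genes that this rule or a list names are not reported here. Genes named in the text on start sites were chosen after their values were seen. The labels do not say whether libraries come from separate litters, so p-values measure the spread between these samples. Alternatives were RLE size factors, DESeq2 1.42.0, no filter on low counts, terms for Y-linked or erythroid expression, only the groups compared, each library left out, and, chosen after seeing the data, the retina libraries with lens transcripts left out or a lens term.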

Additional observations from a re-analysis of the deposited data

Results flagged for a closer look

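Rbm3 in the retina differed between the genotypes in its response to hyperoxia by a test of the difference itself, with an interaction of 0.95 on the log2 scale (SE 0.10, adjusted p = 0.025, edgeR). All 3 KO-O2 retinas (238 to 261 CPM) lay above the other 9 (108 to 131 CPM).

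The other results to look at again are clock genes whose groups did not overlap in either tissue, with log2 fold changes of opposite sign. The differences between lung and retina were not tested since the tables were made separately. None of the retina values below passed an adjusted p of 0.1. In the lung, Wee1 in KO and Fbxl21 did not pass it either. Over all genes, groups did not overlap for 49.8% (lung) and 24% (retina) in WT hyperoxia, and for 52.4% and 26.2% in KO hyperoxia. In KO-RA against WT-RA the shares were 15.2% and 17.7%. Nr1d1 in WT-O2 against WT-RA had a log2 fold change of 1.38 in the lung and -0.38 in the retina, a difference of 1.76. Wee1 had 0.79 and -0.26 in WT-O2 against WT-RA, a difference of 1.05, and 0.24 and -0.51 in KO-O2 against KO-RA, a difference of 0.75. Csnk1e had -0.50 and 0.23 in KO-O2 against KO-RA, a difference of -0.73. Fbxl21, at 0.31 to 0.85 CPM in these lungs, had 0.49 and -0.73 in KO-RA against WT-RA, a difference of 1.23. The lungs were collected on day 15 and the retinas on day 18 after a recovery in room air, so tissue, age and exposure cannot be told apart.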

How the results depend on the processing

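No paired analysis was possible because the labels give no replicate numbers, so the numbers used here are in accession order and pair no samples. Of the log2 fold changes of single members recomputed under an alternative, 875 in the lung and 982 in the retina kept their side of the threshold, 13 and 8 came to pass it, 2 and 0 ceased to pass it, and no value past the threshold changed sign. In WT lungs the count at an adjusted p under 0.1 was 2, and 2 to 3 with each library left out. It became 4 with an erythroid term (Arntl, Per2 at log2 -0.84, Per3 and Nr1d1), while Npas2 was lost with a larger value and SE (log2 0.71, SE 0.35, adjusted p = 0.19). The WT groups did not overlap in erythroid transcripts, so that term and the exposure can hardly be told apart there. In KO lungs this count was 3, with 4 under the erythroid term (Arntl added) and in the fit of only the groups compared (Cry2 added), and a range of 2 to 5 over libraries left out (5 without WT-RA replicate 3, 2 without KO-RA replicate 2). The count with the fold threshold in KO lungs was 0 and became 1 (Nr1d1) with a Y-linked term, with a range of 0 to 1 over libraries left out (1 without KO-RA replicate 1). In the retina the count at an adjusted p under 0.1 was 0 in each comparison. In WT hyperoxia it became 1 (Dbp) with DESeq2, and 0 to 1 with each library left out (1 without WT-RA replicate 3, adjusted p = 0.044). Without the 3 libraries with lens transcripts only replicate 1 remained in WT-RA, so no count is given for that fit. In KO hyperoxia the count became 1 (Clock) with DESeq2, and 0 to 1 with each library left out (1, Per1, without KO-O2 replicate 1). In KO-O2 against WT-O2 it was 0 to 2 with each library left out, 2 being Per1 (log2 0.73) and Cry2 (log2 0.46) without KO-O2 replicate 1. In KO-RA against WT-RA it became 1 (Clock) with DESeq2. The cause was not tested. The fit of only the groups compared was not run for the interaction. Nr1d1 in WT lungs stayed called under every alternative run, with log2 fold changes from 1.24 to 1.76. Depth was lowest behind Npas2 in the retina (2.14 to 5.23 CPM).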
